A study of Mus musculus with 24 samples.

Results

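The semaphorins, plexins and neuropilins are a family of guidance ligands and their receptors. Its members were taken as the genes whose symbols begin with Sema3 to Sema7 or with Plxna, Plxnb, Plxnc or Plxnd, plus Nrp1 and Nrp2, and were followed by Ensembl ID. This gave 31 of the 43626 genes listed for fibroblasts: 20 semaphorins, 9 plexins and 2 neuropilins, all annotated as protein coding.

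RNA was measured after loss of Mof (Kat8), the acetyltransferase of histone H4 lysine residues, in 24 poly(A) RNA-seq samples that form 8 groups of 3. Mouse embryonic fibroblasts (MEFs, passage 2) were Mof KO or WT, and each genotype was given Adriamycin at 0.1 µg/ml for 24 h or vehicle (DMSO). Differentiated MPC5 podocytes (passage 20), a cell line of the kidney filtration barrier, carried a Mof knockdown or a scramble control, and each was given Adriamycin at 0.25 µg/ml for 24 h or vehicle. Adriamycin (doxorubicin) is a DNA-damaging drug used in mice to injure podocytes. The labels state neither how the KO and the knockdown were made nor whether the 3 samples of a group were separate cultures. The p-values therefore measure only how far those samples scatter, and that scatter may be technical. The data are the authors' 4 tables of comparisons made with DESeq2, 1 for each cell type and drug condition, and they hold no values per sample.

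Semaphorins were found as signals that repel growing axons, and they also steer vessels, immune cells and epithelia. Class 3 semaphorins are secreted, and most bind a neuropilin, which holds the ligand while a plexin carries the signal into the cell. The other vertebrate classes are anchored in the membrane and mostly bind plexins directly. The cytoplasmic part of a plexin acts on small GTPases of the Ras family and so changes the actin skeleton and integrin adhesion. Neuropilins are also co-receptors for vascular endothelial growth factors (VEGFs). In mice, excess Sema3a from podocytes damages the filtration barrier.

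The 4 tables do not state which group is on top of their fold changes, and their names put the control first, which by itself would point to control over Mof-depleted. Since the labels describe loss of Mof, the negative sign of Kat8 in each table was taken to mean Mof-depleted over control, so Kat8 is no separate check of the labels. Read the other way, every rise, fall and implied mean given here would turn round. In the authors' deposited tables its level in Mof KO MEFs was 25.7% of that in WT MEFs with vehicle and 30.5% with Adriamycin. In Mof knockdown podocytes it was 35.6% of that in scramble podocytes with vehicle and 42.3% with Adriamycin. The authors normalized each table on its own. Both MEF tables list all genes, while the podocyte tables are limited to genes past an adjusted p of 0.05, so the value of a member without a row there is unknown. RNA came from whole cultures, in which fewer cells of a type and less RNA per cell cannot be told apart.

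Levels were compared between members as mean normalized counts per kb of exon. Plxnb2, a receptor of class 4 semaphorins, had the highest level in all 4 tables, at 1691 per kb in MEFs with vehicle, 2673 in MEFs with Adriamycin, 2062 in podocytes with vehicle and 2929 in podocytes with Adriamycin, from the mean counts of the authors' deposited tables. Plxna1, the second among the members listed in each table, had 1101, 1438, 918 and 1497 per kb in the same order. The third place went to Nrp1 in both MEF tables, at 1019 per kb with vehicle and 868 with Adriamycin. Among the members listed in podocytes, 15 with vehicle and 17 with Adriamycin, it went to Sema3c with vehicle, at 435 per kb, and to Plxnd1 with Adriamycin, at 546 per kb. A member not listed has no level there. Plxnb3 had the lowest level in MEFs, at 1.32 per kb with vehicle and 0.333 per kb with Adriamycin. The tables give no spread of a level over samples, so no neighbours in these orders were tested against each other.

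**Figure D1:**
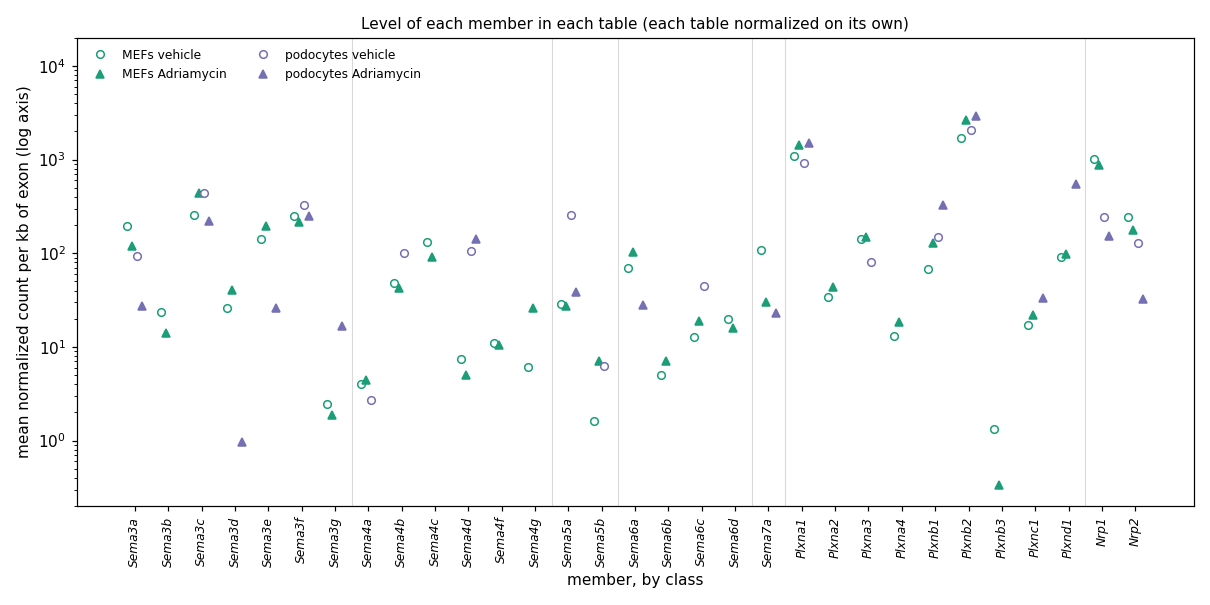
Mean normalized count per kb of exon (log axis) of each of the 31 members, ordered by class, with 1 symbol for each of the 4 tables. Plxnb2 and Plxna1 stand highest in all 4 tables, and a member that a podocyte table does not list has no symbol there.

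In MEFs given vehicle, 5 of 9 plexins were higher without Mof and 0 were lower, while the secreted ligand Sema3a was lower. Besides Plxna1, Plxna4, Plxnb2, Plxnc1 and Plxnd1, the co-receptor Nrp2 and the ligands Sema3b, Sema3c, Sema3e, Sema4a and Sema5a rose, and Sema3a and Nrp1 fell. In all 13 of 31 members passed the authors' DESeq2 test (adjusted p below 0.05), 11 higher and 2 lower, against 37.5% of the 15605 genes tested (17.8% higher and 19.6% lower). The members' share of 41.9% is near that background. Their median log2 fold change was 0.30, beside 0.01 over all genes tested, and 23 of 31 values were positive. Of 8 macrophage markers 5 were higher in the same comparison, and their part in the members' changes was not tested.

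In MEFs given Adriamycin, Sema4a, Sema5a, Plxnb2, Plxnd1 and Nrp2 rose and Sema3a, Sema6c, Plxna3 and Nrp1 fell. That is 9 of the 29 members tested, or 31.0%, against a background of 32.7% of 14139 genes (16.6% higher and 16.1% lower), and it is again near it. Sema3g and Plxnb3, at mean counts of 8.50 and 2.16, have no adjusted p there. The median log2 fold change was 0.09, beside -0.02 over all genes tested. Of the 13 members called with vehicle 7 were also called with Adriamycin (53.8% of the first list and 77.8% of the second), each in the same direction. The same shares over all genes were not computed, so nothing is read from this overlap about the family.

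In podocytes given vehicle, 14 members rose and 1, Plxna1, fell after Mof knockdown. The 15 listed members are 48.4% of the family, beside 14.3% of all 13876 genes tested, and the 14 that rose stand beside a background of 8.7% of genes that rose and 5.64% that fell. They comprise 9 semaphorins, both neuropilins and Plxna3, Plxnb1 and Plxnb2. A member that is not listed may have been tested without passing or may have been filtered, and these cannot be told apart.

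In podocytes given Adriamycin, 7 semaphorins rose and 3 fell, while 5 plexins fell and 0 rose. Both neuropilins rose. The table lists 17 of 31 members, or 54.8%, beside 55.7% of 17184 genes tested. The first share is of all members, as the number of members tested is unknown, so it is not read as near the background or apart from it. The background was 27.8% of genes higher and 27.9% lower. Of the 15 members listed with vehicle 10 are listed again with Adriamycin (66.7% of the first list and 58.8% of the second). Of all 1990 genes listed with vehicle 1518 are listed again. Of the 10 members 6 went in the same direction and 4 (Sema3f, Sema4d, Plxnb1 and Plxnb2) in the opposite one. The share of all genes that changed direction was not computed, so nothing is read from these counts about the family.

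Sema5a and Nrp2 were higher in every table, the only 2 members of which this holds. A further 11 members were higher in some tables and lower in others. Sema6a was called only as lower, and 7 members (Sema4c, Sema4f, Sema4g, Sema6b, Sema6d, Plxna2 and Plxnb3) were called in no table. Their log2 fold changes in the authors' deposited MEF tables lay between -0.24 (Sema6b) and 1.13 (Plxnb3). Many changes were small. At least 1.5-fold was reached by 7 of the 13 called members in MEFs with vehicle, 5 of 9 in MEFs with Adriamycin, 6 of 15 in podocytes with vehicle and 14 of 17 in podocytes with Adriamycin. The counts in this paragraph were not set beside the same counts over all genes, so nothing is read from them about the family.

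**Figure D2:**
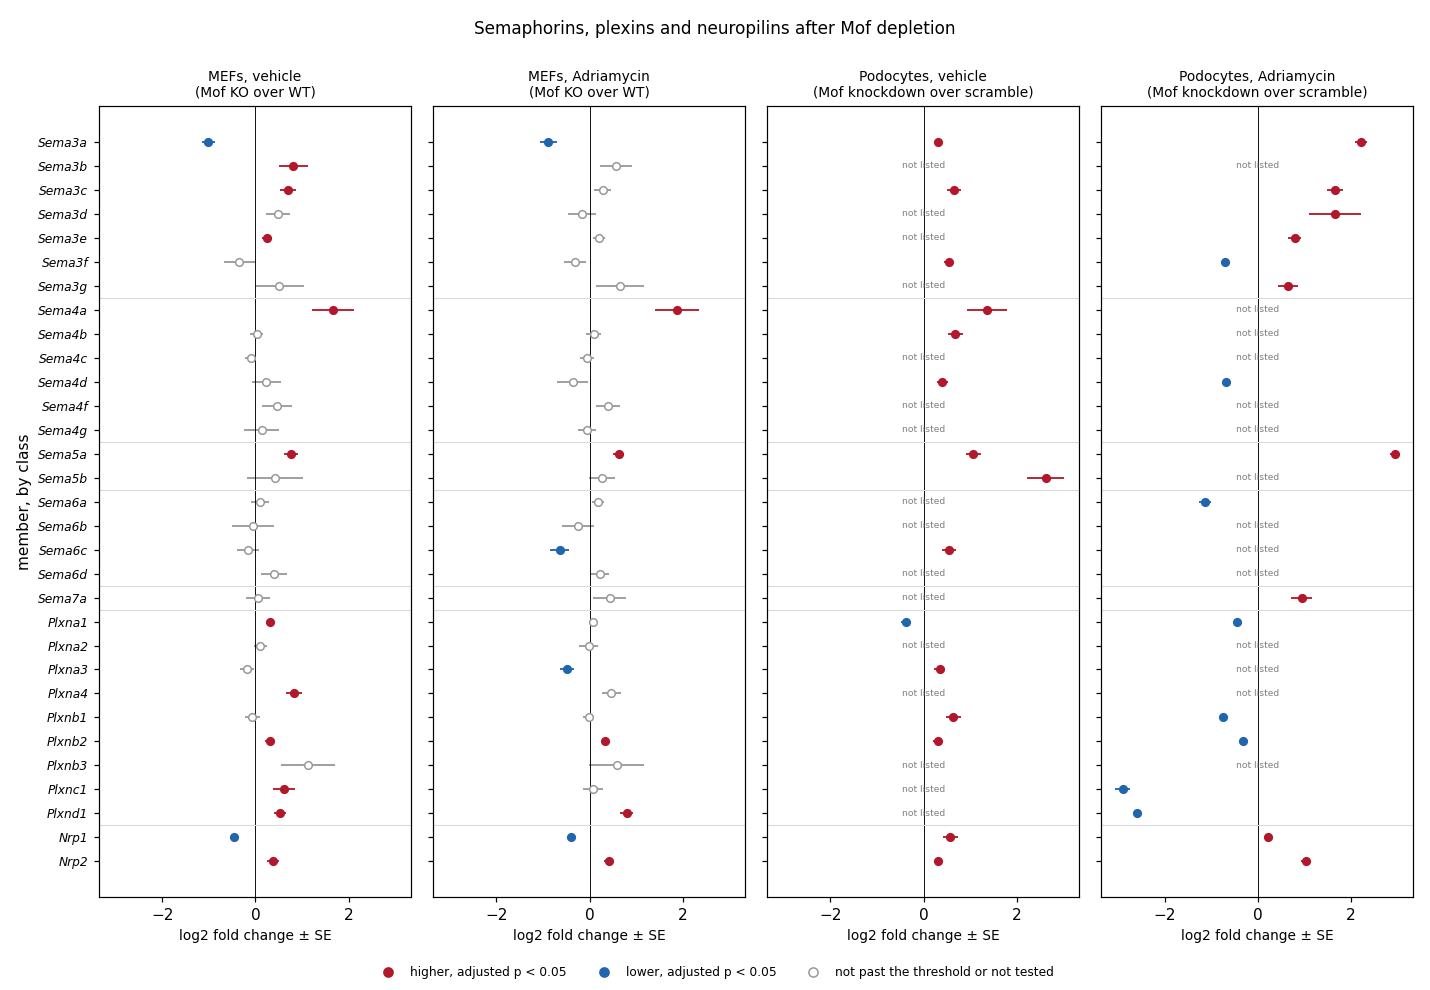
Log2 fold change with its standard error for each of the 31 members in the 4 tables of the authors, Mof KO over WT in MEFs and Mof knockdown over scramble in podocytes. Red points passed the DESeq2 test as higher and blue points as lower, and the widest values, from -2.90 for Plxnc1 to 2.94 for Sema5a, are in podocytes with Adriamycin.

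Among the secreted class 3 ligands Sema3a, which collapses growth cones through Nrp1 and A-type plexins, changed in opposite directions in the cell types. A group mean was computed for each group from the mean count and the fold change, taking 3 samples in each group. The authors' fold changes appear shrunk towards 0, although this is not stated (values under the processing of the data). The implied means of the groups compared would then lie closer together than the true ones, most at low counts. In MEFs with vehicle the implied mean of Sema3a was 1787 normalized counts in Mof KO cells and 3594 in WT cells, and with Adriamycin 1168 in Mof KO cells and 2159 in WT cells. In the authors' deposited tables it fell by 1.01 ± 0.15 on the log2 scale (SE, DESeq2 adjusted p = 2.82e-10) with vehicle and by 0.89 ± 0.18 (adjusted p = 1.23e-05) with Adriamycin. In podocytes it was higher after knockdown, at implied means of 1454 in Mof knockdown and 1170 in scramble cells with vehicle and 623 in Mof knockdown and 134 in scramble cells with Adriamycin. The log2 fold changes in the authors' deposited tables were 0.31 ± 0.09 (DESeq2 adjusted p = 0.0107) with vehicle and 2.21 ± 0.12 (adjusted p = 1.72e-74) with Adriamycin. The second equals a 4.64-fold higher level and ranks 176 of 4776 genes that rose in that table by the Wald statistic.

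Sema3c, a ligand that patterns the outflow tract of the heart, rose in 3 tables. Its implied means were 2265 in Mof KO and 1396 in WT MEFs with vehicle, a log2 fold change of 0.70 ± 0.16 (DESeq2 adjusted p = 0.000138) in the authors' deposited table. With Adriamycin the value in MEFs was 0.28 ± 0.18 and did not pass (DESeq2 adjusted p = 0.231). In podocytes the implied means of Sema3c were 3789 in Mof knockdown and 2423 in scramble cells with vehicle, and 2377 in Mof knockdown and 755 in scramble cells with Adriamycin. With Adriamycin this is a 3.15-fold higher level (log2 fold change 1.66 ± 0.16, DESeq2 adjusted p = 3.5e-23, in the authors' deposited table). In each of these 3 tables the level was higher in the Mof-depleted group.

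Sema3e, which binds Plxnd1 without a neuropilin, rose to an implied 308 in Mof knockdown podocytes with Adriamycin, against 178 in scramble podocytes. That is a log2 fold change of 0.79 ± 0.14 (DESeq2 adjusted p = 3.26e-08) in the authors' deposited table. In MEFs with vehicle it was 0.25 ± 0.11 (adjusted p = 0.0495), a call that is lost when every gene with a p-value is adjusted over (adjusted p = 0.0735). Sema3f, a repellent that works through Nrp2, was higher in Mof knockdown podocytes with vehicle, at 1991 against 1376 in scramble cells, and lower with Adriamycin, at 981 in Mof knockdown and 1593 in scramble cells. Both passed in the authors' deposited tables, with log2 fold changes of 0.53 ± 0.10 (DESeq2 adjusted p = 4.01e-06) and -0.70 ± 0.07 (adjusted p = 1.06e-25). In MEFs its values, -0.35 ± 0.33 and -0.32 ± 0.23, did not pass.

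The remaining secreted ligands had few reads in at least 1 table. Sema3b rose in MEFs with vehicle by 0.81 ± 0.31 on the log2 scale in the authors' deposited table, at a mean count of 113. Sema3d, at a mean count of 8.33, and Sema3g, at 76.5, rose in podocytes with Adriamycin, by 1.65 ± 0.56 and 0.65 ± 0.21 in the authors' deposited table. In MEFs with vehicle Sema3d had 0.49 ± 0.26 and did not pass.

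Of the 7 class 3 ligands 5 rose and 1 fell in podocytes with Adriamycin, where 27.8% of the 17184 genes tested rose and 27.9% fell. Sema3d, Sema3a, Sema3e and Sema3c lie in this order on chromosome 5 (GRCm38, GENCODE M21), from 12383385 to 17730268, a stretch of 5.35 Mb with 73 other annotated genes. All 4 rose in podocytes with Adriamycin, Sema3d at a mean count of only 8.33, and whether they rose jointly was not tested. Of the other genes of the stretch the podocyte table lists 1, Cacna2d1, as lower. How many of them were tested in podocytes is unknown, and few were tested in MEFs, so no contrast with them is drawn. In podocytes with vehicle Sema3a and Sema3c rose and 0 of the other genes were listed. In MEFs with vehicle 2 of the 4 rose and Sema3a fell, and 0 of the 6 other genes tested in the stretch passed. In MEFs with Adriamycin Sema3a fell and 1 of 3 other genes tested, Hgf, was lower.

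Among the ligands bound to the membrane, Sema5a rose in all 4 tables. Class 5 semaphorins carry thrombospondin repeats beside the semaphorin domain, and Sema5a can bind Plxnb3. In MEFs its implied means were 670 in Mof KO and 397 in WT cells with vehicle, and 627 in Mof KO and 407 in WT cells with Adriamycin. In podocytes with vehicle they were 6484 in Mof knockdown and 3101 in scramble cells, a 2.09-fold higher level (log2 fold change 1.06 ± 0.16, DESeq2 adjusted p = 4.59e-09, in the authors' deposited table). With Adriamycin they were 1269 in Mof knockdown and 166 in scramble podocytes. This was the largest rise among the members in that table, 7.66-fold (2.94 ± 0.10, DESeq2 adjusted p = 2.63e-192), and Sema5a ranked 11 of 4776 genes that rose by the Wald statistic of the authors' deposited table. For MEFs the authors' deposited tables give 0.76 ± 0.15 (DESeq2 adjusted p = 3.94e-06) for vehicle and 0.62 ± 0.13 (adjusted p = 1.14e-05) for Adriamycin.

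Its relative Sema5b rose 6.15-fold in podocytes with vehicle, from the authors' deposited table (log2 fold change 2.62 ± 0.39, DESeq2 adjusted p = 4.32e-09), at a mean count of 44.3. It is not listed with Adriamycin. In MEFs Sema5b had 0.43 ± 0.60 with vehicle and 0.27 ± 0.28 with Adriamycin and did not pass.

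Sema4a, a class 4 ligand that also acts on T cells, rose in 3 tables at low counts, 21.6, 24.1 and 14.7 on average. Its log2 fold changes in the authors' deposited tables were 1.67 ± 0.45 (DESeq2 adjusted p = 0.000922) in MEFs with vehicle, 1.88 ± 0.47 (adjusted p = 0.000543) in MEFs with Adriamycin and 1.35 ± 0.44 (adjusted p = 0.0184) in podocytes with vehicle. The sum of 8 macrophage markers, carried mostly by Lyz2, was higher in Mof KO than in WT MEFs in both MEF tables (values at the end of the report). With Adriamycin none of the 8 passed. The part of these markers in the rise of Sema4a was not tested. Sema4b rose in podocytes with vehicle, to an implied 696 in Mof knockdown cells, against 435 in scramble cells. Sema4d (CD100), the main ligand of Plxnb1, had implied means of 934 in Mof knockdown and 707 in scramble podocytes with vehicle, and of 843 in Mof knockdown and 1358 in scramble podocytes with Adriamycin. It thus rose with vehicle and fell with Adriamycin, by log2 fold changes of 0.40 ± 0.12 (DESeq2 adjusted p = 0.00908) and -0.69 ± 0.07 (adjusted p = 3.45e-25) in the authors' deposited tables.

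Class 6 semaphorins bind A-type plexins. Sema6a fell to an implied 154 in Mof knockdown podocytes with Adriamycin, against 337 in scramble podocytes, a log2 fold change of -1.13 ± 0.13 (DESeq2 adjusted p = 3.54e-18) in the authors' deposited table. In MEFs it had 0.10 ± 0.20 and 0.18 ± 0.13 and did not pass. Sema6c fell in MEFs with Adriamycin, with implied means of 87.8 in Mof KO and 137 in WT cells, and rose in podocytes with vehicle, with 316 in Mof knockdown and 217 in scramble cells. Sema7a, which is held by a GPI anchor and binds Plxnc1 and integrins, rose in podocytes with Adriamycin by 0.94 ± 0.22 on the log2 scale (DESeq2 adjusted p = 4.67e-05, in the authors' deposited table) at a mean count of 75.4.

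Among the plexins, Plxnd1 and Plxnc1 had the largest values of the family in the negative direction. Plxnd1 is the receptor of Sema3e and guides vessels. In podocytes with Adriamycin its implied mean was 1130.1 in Mof knockdown cells and 6837 in scramble cells, so that 16.5% of the scramble level was left. Its log2 fold change of -2.60 ± 0.07 ranked 1 of 4802 genes that fell by the Wald statistic in the authors' deposited table, and its DESeq2 adjusted p is listed as 0. Plxnc1, the receptor of Sema7a, had implied means of 66.3 in Mof knockdown and 495 in scramble podocytes, or 13.4% of the scramble level (-2.90 ± 0.15, DESeq2 adjusted p = 2.32e-78, in the authors' deposited table). Both are absent from the list for podocytes with vehicle, so the effect there is unknown.

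In MEFs the same receptors were higher or did not pass. The implied means of Plxnd1 were 786 in Mof KO and 547 in WT cells with vehicle and 919 in Mof KO and 530 in WT cells with Adriamycin. In the authors' deposited tables these are log2 fold changes of 0.52 ± 0.13 (DESeq2 adjusted p = 0.000198) and 0.79 ± 0.14 (adjusted p = 7.89e-07). Plxnc1 had implied means of 175 in Mof KO and 115 in WT cells with vehicle (log2 fold change 0.61 ± 0.24 in the authors' deposited table, DESeq2 adjusted p = 0.0294). With Adriamycin its value was 0.07 ± 0.21 and did not pass.

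The B-type plexins signal through RhoA guanine nucleotide exchange factors. Plxnb2 rose by 0.30 ± 0.09 with vehicle and 0.33 ± 0.08 with Adriamycin on the log2 scale in Mof KO MEFs (DESeq2 adjusted p = 0.00423 and 0.000139, in the authors' deposited tables). In podocytes its implied means were 17549 in Mof knockdown and 14286 in scramble cells with vehicle, and 20135 in Mof knockdown and 25093 in scramble cells with Adriamycin. It therefore rose with vehicle and fell with Adriamycin. Plxnb1, the receptor of Sema4d, had 1749 in Mof knockdown and 1125 in scramble podocytes with vehicle, and 2364 in Mof knockdown and 3978 in scramble podocytes with Adriamycin. The log2 fold changes of Plxnb1 in the authors' deposited tables were 0.64 ± 0.16 (DESeq2 adjusted p = 0.00184) and -0.75 ± 0.05 (adjusted p = 3.53e-49). In MEFs Plxnb1 had -0.07 ± 0.16 and -0.02 ± 0.13 and did not pass.

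The A-type plexins carry the signal of class 3 ligands held by a neuropilin. Plxna1 fell in both podocyte tables, with implied means of 7217 in Mof knockdown and 9405 in scramble cells with vehicle and of 11522 in Mof knockdown and 15594 in scramble cells with Adriamycin. In MEFs with vehicle it rose, by 0.30 ± 0.06 on the log2 scale in the authors' deposited table (DESeq2 adjusted p = 8.39e-06). With Adriamycin it had 0.06 ± 0.08 and did not pass. Plxna4 rose in MEFs with vehicle, with implied means of 234 in Mof KO and 132 in WT cells (0.83 ± 0.17, DESeq2 adjusted p = 1.32e-05, in the authors' deposited table). Plxna3 fell in MEFs with Adriamycin, at 971 in Mof KO and 1358 in WT cells, and rose in podocytes with vehicle, at 709 in Mof knockdown and 559 in scramble cells. Gm26811, an antisense gene, shares 10.7% of the exon bases of Plxna1, and Gm7628 shares 2.68% of those of Plxnb1. The labels do not state the strand setting of the read counting, so reads of these pairs cannot be told apart.

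The neuropilins went in opposite directions in MEFs and both rose in podocytes. Nrp1, the co-receptor of Sema3a and VEGF-A, had implied means of 8415 in Mof KO and 11530.3 in WT MEFs with vehicle, and of 7301 in Mof KO and 9689 in WT MEFs with Adriamycin. It fell by 0.45 ± 0.10 (DESeq2 adjusted p = 6.43e-05) and by 0.41 ± 0.08 (adjusted p = 6.34e-06) on the log2 scale in the authors' deposited tables. In podocytes it had 2825 in Mof knockdown and 1908 in scramble cells with vehicle, and 1606 in Mof knockdown and 1390.0 in scramble cells with Adriamycin. Both passed, at 0.57 ± 0.16 (DESeq2 adjusted p = 0.00591) and 0.21 ± 0.06 (adjusted p = 0.000711) in the authors' deposited tables. Nrp2, the co-receptor of Sema3f and VEGF-C, rose in all 4 tables. Its log2 fold changes in the authors' deposited tables were 0.38 ± 0.12 (DESeq2 adjusted p = 0.00758) in MEFs with vehicle and 0.41 ± 0.10 (adjusted p = 0.000457) with Adriamycin. For podocytes the authors' deposited tables give 0.31 ± 0.10 (adjusted p = 0.0146) for vehicle and 1.04 ± 0.10 (DESeq2 adjusted p = 5e-23) for Adriamycin. In the last of these its implied means were 521 in Mof knockdown and 254 in scramble cells.

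**Figure D3:**
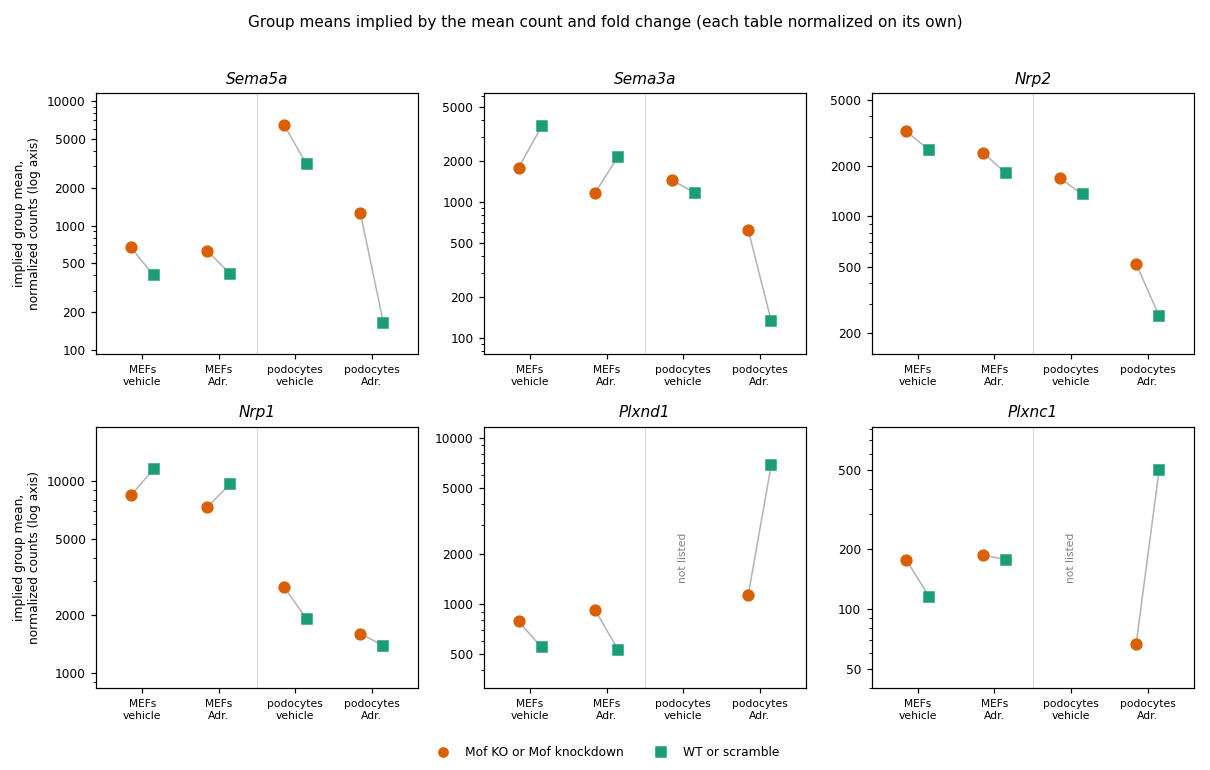
Group means in normalized counts (log axis), computed from the mean count and the fold change, for 6 members in each table, with circles for Mof KO or Mof knockdown and squares for WT or scramble. Sema5a and Nrp2 are higher in the Mof-depleted group in all 4 tables, Sema3a and Nrp1 are lower in MEFs and higher in podocytes, and Plxnd1 in podocytes with Adriamycin stands at 1130.1 in Mof knockdown cells and 6837 in scramble cells.

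Read as pairs of ligand and receptor in podocytes with Adriamycin, some pairs moved the same way and others apart. Sema3e had a log2 fold change of 0.79 and its receptor Plxnd1 -2.60 in the authors' deposited table. Sema7a had 0.94 and its receptor Plxnc1 -2.90 in the authors' deposited table. Sema3f had -0.70 and its co-receptor Nrp2 1.04 in the authors' deposited table. Sema3c and Nrp2, which binds it, rose together, at 1.66 and 1.04 in the authors' deposited table. Sema4d and its receptor Plxnb1 fell together, at -0.69 and -0.75 in the authors' deposited table. Sema3a and Nrp1 were higher together in podocytes and lower together in MEFs, with the values given above.

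The promoters of the 2 members with the lowest and the 2 with the highest fold change in podocytes with Adriamycin, leaving out members with a mean count under 100, are shown because these members carry the largest changes of the family. Each is the 250 bases before the gene's start in RefSeq (GRCm38.p6), 5′ to 3′ on the gene's strand, and capitals mark matches to the motifs searched. Plxnd1 is at chr6:115995006-115995255 (minus strand), Plxnc1 at chr10:94944846-94945095 (minus strand), Sema5a at chr15:32244563-32244812 (plus strand) and Sema3a at chr5:13396534-13396783 (plus strand). The RefSeq start of Sema5a used here lies a few bases inside the GENCODE gene. That of Sema3a lies far inside its gene, which GENCODE starts at chr5:13125414. The Sema3a window thus stands before an internal start and not before the first base of the gene. The lincRNA Snhg18, on the other strand, overlaps the window of Sema5a.
Plxnd1: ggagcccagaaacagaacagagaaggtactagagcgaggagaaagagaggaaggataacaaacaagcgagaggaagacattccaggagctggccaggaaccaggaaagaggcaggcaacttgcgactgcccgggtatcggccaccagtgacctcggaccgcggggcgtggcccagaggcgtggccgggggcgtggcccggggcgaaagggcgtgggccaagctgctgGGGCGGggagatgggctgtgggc
Plxnc1: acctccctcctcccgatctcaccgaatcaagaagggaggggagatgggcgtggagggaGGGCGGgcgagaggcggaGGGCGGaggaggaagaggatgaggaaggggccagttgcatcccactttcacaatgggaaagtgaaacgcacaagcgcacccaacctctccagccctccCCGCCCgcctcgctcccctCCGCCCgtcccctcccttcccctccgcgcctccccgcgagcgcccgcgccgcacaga
Sema5a: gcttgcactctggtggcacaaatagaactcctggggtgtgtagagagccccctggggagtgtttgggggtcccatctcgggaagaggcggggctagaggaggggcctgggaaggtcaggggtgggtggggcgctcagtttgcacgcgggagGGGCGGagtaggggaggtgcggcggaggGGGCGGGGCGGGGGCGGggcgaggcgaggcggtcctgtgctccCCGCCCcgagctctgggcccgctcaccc
Sema3a: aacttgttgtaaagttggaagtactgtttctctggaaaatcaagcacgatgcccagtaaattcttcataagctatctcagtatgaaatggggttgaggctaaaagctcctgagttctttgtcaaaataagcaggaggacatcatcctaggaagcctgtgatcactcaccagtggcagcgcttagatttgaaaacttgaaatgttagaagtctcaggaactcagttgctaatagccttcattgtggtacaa

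The windows of Plxnd1, Plxnc1 and Sema5a are rich in G and C, at 64.8%, 68.8% and 72%, with 16, 22 and 17 CpG dinucleotides. That of Sema3a, before a start far inside the gene, has 40.8% G and C and 2 CpG dinucleotides. The motifs searched, on both strands and with matches allowed to overlap, were the GC box (GGGCGG), the CCAAT box (CCAAT), the E-box (CACGTG), the TATA box (TATAAA) and TTCGCGC. In these 4 windows only the GC box was found, with 1 match in Plxnd1, 4 in Plxnc1 and 5 in Sema5a. No match says only that these letters are not in the window.

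RefSeq gave 37 promoters for 26 of the 31 members. The GC box was in 27 of these 37 (73.0%), beside 32.7% of all 32851 promoters of the same length. The CCAAT box was in 7 (18.9%), beside 33.8%, the E-box in 2 (5.41%), beside 6.02%, the TATA box in 0, beside 12.4%, and TTCGCGC in 1 (2.70%), beside 1.28%. The median share of G and C was 64% in the members' promoters, beside 52.4% in all promoters. These are descriptions of letters, with no test.

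Whether the effect of Mof depletion differed between drug conditions was tested on the log2 fold changes, as the value with Adriamycin minus that with vehicle over the joint standard error (2-sided z test, Benjamini-Hochberg adjusted). The fold changes appear shrunk, and shrinkage that differs between tables would enter these differences and those between cell types. Its part was not tested. In MEFs 0 of 29 members differed, beside 7.09% of 13973 genes. The smallest adjusted p was 0.116, and 1 member, Plxna1, had an unadjusted p below 0.05, with a difference of -0.24 ± 0.10. The size of the difference was at most 0.66, in Sema3d.

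In podocytes 8 of the 10 members listed in both tables differed, beside 56.6% of the 1518 genes listed in both. A gene could enter only by passing with and without Adriamycin, so nothing is read from that share. The effect was more positive with Adriamycin for Sema3a (by 1.90 ± 0.15), Sema5a (1.87 ± 0.19), Sema3c (1.01 ± 0.22) and Nrp2 (0.72 ± 0.14). It was more negative for Plxnb1 (-1.39 ± 0.17), Sema3f (-1.23 ± 0.12), Sema4d (-1.09 ± 0.14) and Plxnb2 (-0.61 ± 0.10), which all changed sign. Their adjusted p-values ran up to 0.000132. Plxna1 (-0.05 ± 0.12) and Nrp1 (-0.36 ± 0.17) did not pass, with adjusted p-values of 1 and 0.514.

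**Figure D4:**
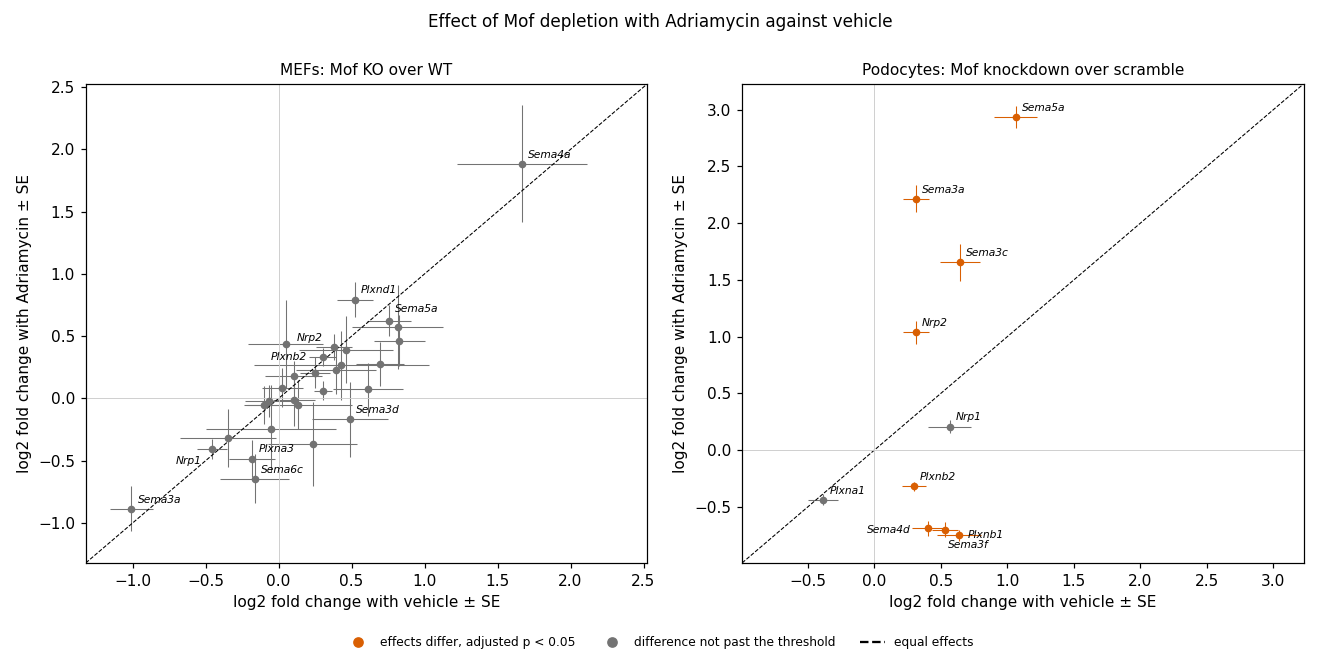
Log2 fold change of Mof-depleted over control cells with Adriamycin (vertical) against vehicle (horizontal), with standard errors, for 29 members in MEFs and the 10 listed in both podocyte tables. In MEFs 0 of 29 members differed between the drug conditions, beside 7.09% of 13973 genes. In podocytes 8 of 10 did, shown in orange away from the line of equal effects, beside 56.6% of the 1518 genes listed in both. A gene entered in podocytes only by passing with and without Adriamycin, so these counts are not compared.

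Between cell types the effects were also set against each other, podocytes minus MEFs. The MEFs were KO cells given 0.1 µg/ml and the podocytes knockdown cells given 0.25 µg/ml, so cell type, the way Mof was depleted and dose cannot be told apart, and members entered only if podocytes listed them. With vehicle 6 of 15 members differed, beside 39.9% of 1897 genes. Sema5b (2.19 ± 0.72), Sema3a (1.32 ± 0.18), Nrp1 (1.02 ± 0.19), Plxnb1 (0.70 ± 0.23) and Sema4b (0.65 ± 0.21) had the more positive effect in podocytes, and Plxna1 (-0.69 ± 0.13) the more negative.

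With Adriamycin 13 of 16 members differed between the cell types, beside 75.7% of 8842 genes. The greatest differences were those of Plxnd1 (-3.39 ± 0.16), Sema3a (3.10 ± 0.22), Plxnc1 (-2.97 ± 0.26) and Sema5a (2.31 ± 0.16). Sema3f, Sema4d and Sema7a did not pass, at -0.38 ± 0.24, -0.32 ± 0.34 and 0.50 ± 0.42.

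Among the co-receptors and other receptors that semaphorins use, L1cam, the adhesion molecule through which Sema3a acts on axons together with Nrp1, rose in all 4 tables. In the authors' deposited tables its log2 fold changes were 1.09 ± 0.24 in MEFs and 0.70 ± 0.11 in podocytes with vehicle, and 1.10 ± 0.28 in MEFs and 1.04 ± 0.09 in podocytes with Adriamycin. Met, the hepatocyte growth factor receptor that pairs with Plxnb1, fell in MEFs, with log2 fold changes of -0.76 ± 0.12 in cells given vehicle and -0.41 ± 0.14 in cells given Adriamycin (authors' deposited tables, both past the test). In podocytes the authors' deposited tables give -0.23 ± 0.08 for vehicle, a fall, and 0.89 ± 0.05 for Adriamycin, a rise. Of the 16 genes of the list 6 rose and 3 fell of 15 tested in MEFs with vehicle, with a median of 0.19, and 2 rose and 2 fell with Adriamycin, with a median of -0.13. In podocytes 2 rose and 1 fell with vehicle, and 4 rose and 1 fell with Adriamycin. The share called was 60% in MEFs with vehicle beside 37.5% of all genes, 26.7% in MEFs with Adriamycin beside 32.7%, 18.8% in podocytes with vehicle beside 14.3% and 31.2% in podocytes with Adriamycin beside 55.7%. Tyrobp and Trem2, which rose in MEFs with vehicle, are also expressed by macrophages, whose markers were higher there.

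Of the 8 VEGF ligands and receptors, 3 rose and 0 fell in each MEF table, with medians of 0.37 with vehicle and 0.33 with Adriamycin. That share of 37.5% equals the 37.5% of all genes with vehicle and is near the 32.7% with Adriamycin. They were Flt4, Figf and Vegfb with vehicle (0.75 ± 0.10, 0.51 ± 0.15 and 0.42 ± 0.15 in the authors' deposited table). With Adriamycin they were Vegfb, Pgf and Vegfa (1.03 ± 0.13, 0.78 ± 0.27 and 0.55 ± 0.17 in the authors' deposited table). In podocytes with vehicle 1 of the 8 was called, beside 14.3% of all genes. It was Figf, which rose by 1.49 ± 0.52 on the log2 scale in the authors' deposited table. With Adriamycin 0 rose and 4 fell in podocytes (50%, beside 55.7%), among them Vegfa, which podocytes supply to the glomerular endothelium, by 1.27 ± 0.05 on the log2 scale, Vegfb by 1.05 ± 0.09 and Pgf by 1.60 ± 0.37 in the authors' deposited table.

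Of the proteins that act downstream of plexins, 38 of 39 were found in the tables. In podocytes with Adriamycin 18 rose and 12 fell, which is 78.9% of the list beside the background of 55.7%. Rnd3 (1.13 ± 0.06) and Rras2 (1.03 ± 0.06), both small GTPases, and the kinase Rock2 (0.75 ± 0.04) rose, and Limk2, which phosphorylates cofilin (-1.53 ± 0.05), Rnd1 (-1.14 ± 0.07) and Sh3bp1 (-1.06 ± 0.06) fell, in the authors' deposited table. With vehicle 3 rose (Mical3, Pip5k1c and Arhgef12) and 3 fell (Farp1, Mical2 and Limk2) in podocytes, 15.8% beside 14.3%. In MEFs 8 rose and 2 fell with vehicle (median 0.09), 26.3% beside 37.5%, and 9 rose and 4 fell with Adriamycin (median 0.08), 34.2% beside 32.7%. Mical1, an oxidizing enzyme that takes actin filaments apart, fell in both of the authors' deposited MEF tables, with log2 fold changes of -0.73 ± 0.10 for vehicle and -1.14 ± 0.15 for Adriamycin.

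Of 8 proteases that cut semaphorins or related ligands, 2 rose and 1 fell in MEFs with vehicle, 1 rose and 1 fell in MEFs with Adriamycin, 3 rose and 1 fell in podocytes with vehicle and 2 rose and 4 fell in podocytes with Adriamycin. The shares called were 37.5% in MEFs with vehicle beside 37.5% of all genes, 25% in MEFs with Adriamycin beside 32.7%, 50% in podocytes with vehicle beside 14.3% and 75% in podocytes with Adriamycin beside 55.7%. The medians in MEFs were -0.03 with vehicle and 0.04 with Adriamycin. Furin, the convertase that cleaves class 3 semaphorins, fell by 1.05 ± 0.07 on the log2 scale in podocytes with Adriamycin in the authors' deposited table. Adamts1, a secreted metalloprotease, fell in both MEF tables (-0.70 ± 0.13 and -0.57 ± 0.18) and rose in both podocyte tables (0.65 ± 0.15 and 1.42 ± 0.12) of the authors' deposited tables.

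Marker lists of other cell types were read in the same tables, as sums of the implied group means. In MEFs with vehicle 5 of 8 macrophage markers (Emr1, C1qa, Lyz2, Cd68 and Tyrobp) were higher, with a summed implied level of 4285 in Mof KO MEFs and 2168 in WT MEFs, and with Adriamycin 0 of the 8 passed, at 5414 in Mof KO MEFs and 4014 in WT MEFs. None of the 8 macrophage markers lay below a mean count of 10. Lyz2 carried most of both sums, at mean counts of 1924 with vehicle and 2624 with Adriamycin. With Adriamycin Lyz2 had 0.73 ± 0.39 on the log2 scale. Ptprc (-0.25 ± 0.33), Csf1r (-0.43 ± 0.26) and Itgam (-0.46 ± 0.25) had negative values there, and the other macrophage markers had positive ones. The 8 fibroblast markers summed to 294225 in Mof KO MEFs and 326999 in WT MEFs with vehicle, a sum carried mostly by Col1a1 and Col1a2, and none lay below a mean count of 10. Dcn was higher and Col1a2 lower in both MEF tables, and Col3a1 was lower with Adriamycin. Among the smooth muscle markers Des was higher and Acta2 lower in both MEF tables, and Tagln was lower with Adriamycin. Of 8 endothelial markers 0 passed in either MEF table, their sums were 546 in Mof KO MEFs and 553 in WT MEFs with vehicle, and Pecam1, Tie1 and Cldn5 lay below a mean count of 10. Neuron and glia markers summed to 1570 in Mof KO MEFs and 1343 in WT MEFs with vehicle. With Adriamycin the sums were 2735 in Mof KO MEFs and 1349 in WT MEFs. Tubb3 carried most of these sums, at mean counts of 1177 with vehicle and 1769 with Adriamycin. Tubb3 did not pass with vehicle (0.30 ± 0.17) and was higher with Adriamycin. Sox10, at a mean count of 29.5, was higher with vehicle. The part of these cell types in the results on MEFs was not tested. In podocytes with vehicle Podxl and Synpo were higher among the podocyte markers, Mylk was higher and Acta2 and Des were lower among the smooth muscle markers, and Csf1r was higher among the macrophage markers. With Adriamycin the podocyte markers Cd2ap, Podxl and Synpo were higher, 4 of 8 smooth muscle markers were higher (Acta2, Smtn, Mylk and Tagln) and 2 lower (Des and Cnn1), and Csf1r was higher and Cd68 lower among the macrophage markers. Among the neuron and glia markers Map2 was higher and Tubb3 and Gfap were lower, among the endothelial markers Egfl7 was higher, and among the fibroblast markers Dcn was higher and Col1a1 lower. Nphs1, which defines the podocyte, is not listed in either podocyte table, so the label could not be checked on it. The part of these changes in the results on podocytes was not tested.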

How the data were processed

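Per the labels' protocols, RNA was extracted with the RNeasy kit and sequenced on Illumina instruments from poly(A) libraries. The submitters' processing notes name the GRCm38 build, DESeq2 1.4.1, featureCounts 1.4.5-p1 and TopHat2 2.0.13. Per the file headers, each of the 4 deposited tables gives the signal of a gene as its mean count over samples after the authors' normalization. Each also gives a log2 fold change made by the authors with its standard error, the Wald statistic (a score in the deposited tables), the p-value and the adjusted p-value of the authors. Whether the authors shrank fold changes is stated nowhere in the labels or files. In MEFs with vehicle Tie1, at a mean count of 0.15, had -0.14 ± 0.31, and Cldn5, at 0.18, had 0.18 ± 0.33. Such small values and standard errors at so few reads are those of shrunken fold changes, so the fold changes are best read as shrunk. Depth per library is unknown, and the median standard error of genes that passed, 0.124 in MEFs and 0.130 in podocytes with vehicle and 0.131 in MEFs and 0.0847 in podocytes with Adriamycin, gives the precision. The number of genes tested in podocytes was computed from each gene as its adjusted p times the rank of its p-value, divided by the p-value. The commonest rounded result was taken. Shares called in podocytes are of all members or of all list genes found, tested or not, while the background is of genes tested.

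Members were called at an adjusted p below 0.05. Differences between tables were tested by a z test on the deposited fold changes. The z test was tried on data simulated from the MEF tables with normal noise and without shrinkage. That trial therefore does not cover fold changes that are shrunk, and the part of shrinkage in the differences was not tested. The comparison in MEFs was adjusted over all genes tested in both tables. Those in podocytes and between cell types, chosen after seeing the data, were adjusted over all genes tested in podocytes. Group means were computed only at a mean count of at least 100, taking equal group sizes, except that marker sums use every marker. The members and lists were chosen with earlier results of these data known. Named genes were every member, Kat8 and, of each list, in each table, up to 3 higher and 3 lower members, by adjusted p; not every gene this rule gives is reported. Python 3.11.15, pandas 2.3.3, NumPy 2.4.6, SciPy 1.17.1 and matplotlib 3.10.9 were used with GENCODE M21 and RefSeq. Alternatives were other thresholds on the adjusted p, a minimum fold, other filters on low counts, centring of the fold changes and scaling of the effects with vehicle. Some marker genes are not reported here.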

Additional observations from a re-analysis of the deposited data

Results flagged for a closer look

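The following effects of Mof depletion differed between conditions by a test of the difference itself, on the log2 scale. The fold changes appear shrunk, and the part of shrinkage in these differences was not tested. In podocytes, Adriamycin minus vehicle, the differences were 1.90 for Sema3a, 1.01 for Sema3c, 1.87 for Sema5a and 0.72 for Nrp2. They were -1.23 for Sema3f, -1.09 for Sema4d, -1.39 for Plxnb1 and -0.61 for Plxnb2. Podocytes minus MEFs with vehicle gave 1.32 for Sema3a, 0.65 for Sema4b, 2.19 for Sema5b, 0.70 for Plxnb1, 1.02 for Nrp1 and -0.69 for Plxna1. Of these, Sema4b, Sema5b and Plxnb1 passed narrowly, with adjusted p-values of 0.0379, 0.0419 and 0.0436.

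Podocytes minus MEFs with Adriamycin gave 3.10 for Sema3a, 1.38 for Sema3c, 1.82 for Sema3d, 0.58 for Sema3e and 2.31 for Sema5a among the ligands that were more positive in podocytes, and 0.62 for Nrp1 and 0.63 for Nrp2. It gave -1.31 for Sema6a, -0.50 for Plxna1, -0.73 for Plxnb1, -0.65 for Plxnb2, -2.97 for Plxnc1 and -3.39 for Plxnd1. The value for Sema3d has a standard error of 0.63 (z test, adjusted p = 0.0116), at a mean count of only 8.33 in podocytes. Markers of other cell types that changed in the same tables are named at the end of the report, and their part in these differences was not tested.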

How the results depend on the processing

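With a minimum change of 1.5-fold the members called fell in number to 7 in MEFs with vehicle, 5 in MEFs with Adriamycin and 6 in podocytes with vehicle, a loss the fold minimum itself makes. At adjusted p below 0.01 they were 10, 9 and 10 in these tables, and 17 in podocytes with Adriamycin. Of 528 values recomputed for single members, 489 kept their direction and side of the threshold, 31 lost their call, 1 gained one and 7 reversed. All 7 are differences between drug conditions in MEFs, none of which passed, after the effects with vehicle were scaled by the slope of 0.702. They became -0.178 for Sema3a, 0.000482 for Sema3b, 0.0331 for Sema3e, -0.0721 for Sema3f, 0.0686 for Sema4f, 0.0922 for Sema5a and -0.0891 for Nrp1; the scaling itself shrinks the vehicle effects. Adjusting over genes listed in both tables only gave 8 differences between drug conditions in podocytes, 9 between cell types with vehicle and 13 with Adriamycin. Centring could not be applied to the podocyte tables, which list only genes past the threshold. No paired analysis was possible because no table holds values per sample, and no sample could be left out for the same reason.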

Other observations

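Each table was normalized on its own, so its levels are set beside those of another only as values. The implied mean of Sema5a was 166 in scramble podocytes with Adriamycin and 3101 in scramble podocytes with vehicle. In Mof knockdown podocytes it was 1269 with Adriamycin and 6484 with vehicle. For Sema3a the scramble values were 134 with Adriamycin and 1170 with vehicle, and the Mof knockdown values were 623 with Adriamycin and 1454 with vehicle. Nrp2 had 254 with Adriamycin and 1362 with vehicle in scramble podocytes, and 521 with Adriamycin and 1694 with vehicle in Mof knockdown podocytes. No table compares the drug with vehicle, so these levels were not tested.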
